A study of Brachypodium distachyon with 89 samples.

Results

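Ribosomal proteins build the ribosomes of the cytosol, the plastids and the mitochondria, and their transcripts were followed in shoots of Brachypodium distachyon, a wild grass, under complete submergence. The members were the 290 of 24467 genes in the deposited table whose description line opened with ribosomal protein, with the name of the large or small cytosolic subunit (60S or 40S), with zinc-binding ribosomal or with ribosomal L. By these descriptions and their closest Arabidopsis gene, 99 members belonged to the large and 64 to the small subunit of the cytosolic ribosome. Nuclear genes of the plastid ribosome numbered 30, and nuclear genes of the mitochondrial ribosome 44. A further 13 members matched a gene of the plastid genome and 1 a gene of the mitochondrial genome of Arabidopsis. The remaining 39 were assigned to none of these ribosomes. They held 29 unassigned members, 8 factors of ribosome biogenesis or RNA-protein particles and 2 proteins with a fold shared with ribosomal protein S5. Of the 290 members, 289 passed the filter of at least 1 CPM (reads scaled to library size) in 3 libraries, 276 were above 0 in every library and 0 were at 0 in all.

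The plants were the ecotypes Bd21, which the study describes as sensitive to submergence, and Bd21-3, which it describes as tolerant, both grown to 14 days under long days. Submerged plants (S) stood under water in opaque-walled tanks, where 70 µE of light reached them. Low light controls (LL) stood in the same kind of tank without water, and normal growth controls (NG) were kept at 150.0 µE in air. LL thus differs from NG in light and tank, S from LL in water and in the tank they stood in, and S from NG in all of these. Aboveground green tissue was collected at ZT0, ZT8, ZT16, ZT20 and ZT24 (hours after lights on), with submergence begun in the evening before ZT0. Each library came from 5 pooled plants, and the 30 groups had 3 libraries each, but for Bd21 LL ZT24 with 2, so 89 in all. The labels call the libraries of a group biological replicates, so p-values measure the spread between these pools. Plants collected at 1 time shared a tank, so a tank and a ZT cannot be told apart. S and LL plants stood in separate tanks, so water and the single tank cannot be told apart either.

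Libraries held 3896851 to 16044727 reads on genes. For 12 libraries the profile over all genes lay nearest to a library of another group, and in 2 of them the correlation was higher there by more than 0.02. These 2 are called the libraries that stood apart: Bd21 LL ZT16 replicate 3 (highest correlation within its group 0.928, with Bd21 LL ZT8 replicate 1 0.964) and Bd21 S ZT24 replicate 3 (0.961, with Bd21 S ZT20 replicate 2 0.984). Counts that changed by over 1.5 times without them are given beside the result. Both ecotypes had been aligned to the Bd21 genome, so reads of Bd21-3 that differ from it may be lost. Values are CPM of the gene, which cannot be compared between genes because gene lengths were not used here, and changes are log2 fold changes (log2FC) of CPM + 1 from limma. Adjusted p-values are Benjamini-Hochberg values over the 24109 genes tested. Under the study rule a gene changed if its log2FC was 1.5 or more in size, its adjusted p was under 5e-06 and either group compared had a mean level of 15 CPM or more, and under the 5% rule with an adjusted p under 0.05 at any fold.

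A ribosome has a small subunit, which reads the messenger RNA, and a large subunit, which joins amino acids. Plant cells hold 3 kinds. The cytosolic ribosome is of the eukaryotic type and is built from nuclear genes that usually come in several copies per protein, so that copies can be used in different proportions. Plastid and mitochondrial ribosomes are of the bacterial type. Some of their proteins are encoded by the organelle itself, and the others by nuclear genes whose products are imported. Plastid ribosomes make core proteins of the photosystems and the large subunit of Rubisco, and leaf cells hold many of them. Building ribosomes is among the largest costs of a growing cell and is governed in part by the TOR kinase, which responds to sugar and energy supply.

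Transcripts of the nuclear genes for the plastid ribosome were far lower in S than in LL in both ecotypes. From ZT8 on the fall reached most members, and 0 of the 30 rose under either rule described above at any ZT. Their summed level in Bd21 at ZT20 was 972 ± 102 CPM in S (SD, n = 3), 3562 ± 226 in LL and 6871 ± 786 in NG. In Bd21-3 it was 668 ± 113, 4384 ± 575 and 6904 ± 839 CPM. In all 10 combinations of ecotype and ZT every S library had a lower sum than every LL library and every NG library. The difference was already present at ZT0, at the end of the first night under water, with 3639.6 ± 78.9 CPM in S against 5890.3 ± 820.4 in LL for Bd21 and 2829.8 ± 78.9 against 5437 ± 564 for Bd21-3. Within S the sum went down to 807 ± 179 CPM at ZT24 in Bd21 and 556 ± 61.04 in Bd21-3.

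**Figure D1:**
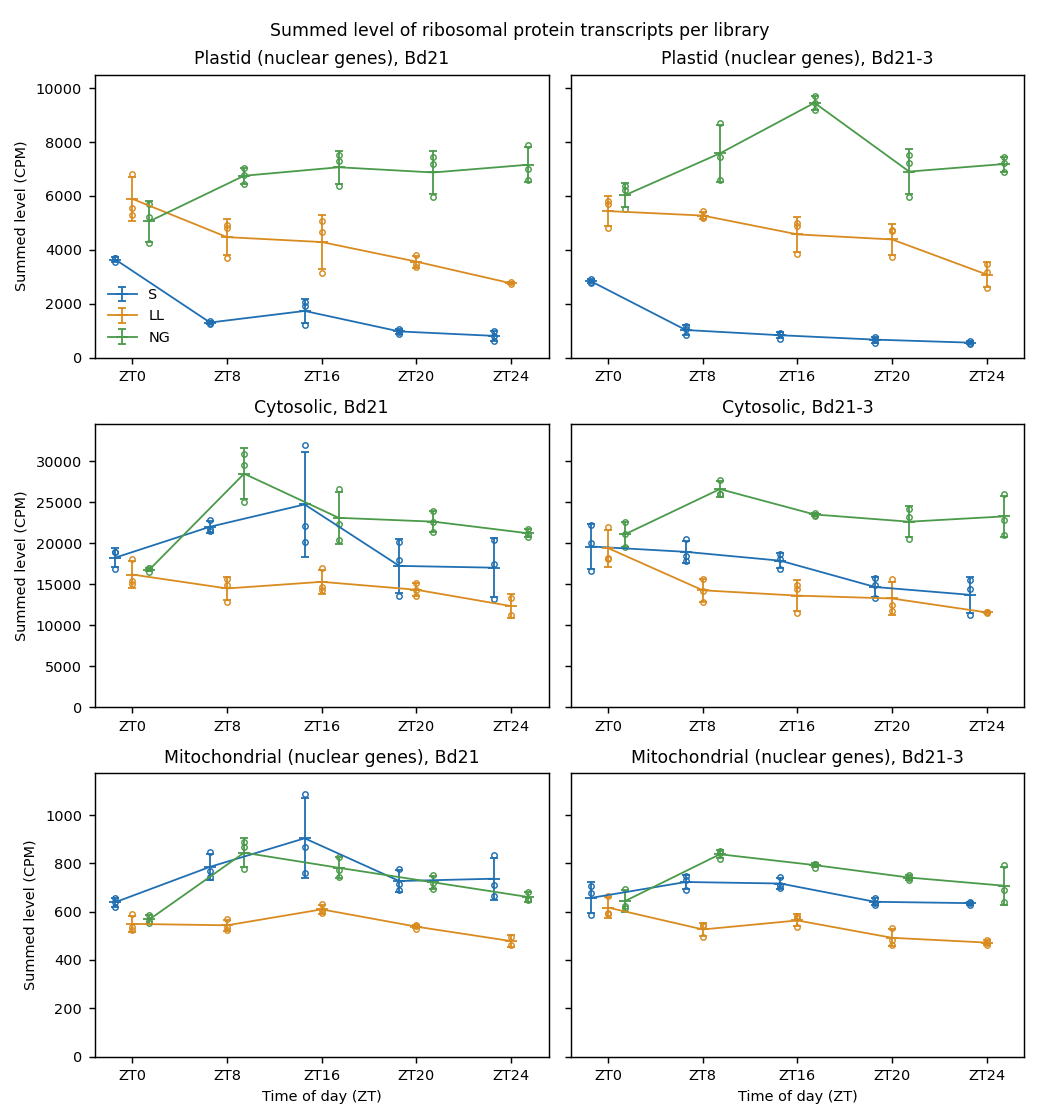
Summed CPM (y axis, from 0) of the nuclear plastid, cytosolic and nuclear mitochondrial ribosomal protein genes (rows) against ZT (x axis) in Bd21 and Bd21-3 (columns), with open circles for libraries and lines with error bars for mean ± SD in S (blue), LL (orange) and NG (green). The plastid sums in S lie under those of LL and NG at every ZT, while the cytosolic sums in S lie between LL and NG or overlap with them at most ZTs.

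Under the study rule 0, 19, 7, 23 and 20 of the 30 plastid genes in Bd21 fell in S over LL at the 5 ZTs in their order, while 3.02%, 2.89%, 3.93%, 4.39% and 4.16% of all genes tested fell. In Bd21-3 the counts were 2, 25, 24, 27 and 26, against 4.32%, 5.04%, 4.67%, 5.54% and 4.71% of all genes. At ZT0 the 5% rule called 23 of them lower in Bd21 and 28 in Bd21-3, against 29.5% and 32.6% of all genes. Median log2FC of the class ran from -0.80 at ZT0 to -2.11 at ZT20 in Bd21 and from -1.08 to -2.89 in Bd21-3, where the medians of all genes were -0.08 and 0.02, and -0.12 and -0.01. At ZT8, ZT16 and ZT24 the class medians were -1.77, -1.36 and -1.88 in Bd21 and -2.40, -2.40 and -2.47 in Bd21-3, with all-gene medians of -0.05, -0.01 and 0.01 and of -0.04, 0.01 and 0.00.

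Taken over the day, 25 of the 30 fell under the study rule at 1 or more ZTs in Bd21 and 28 in Bd21-3, against 8.42% and 9.95% of all genes. All 30 fell at 1 or more ZTs under the 5% rule in both ecotypes, against 50.7% of all genes in each. At all 5 ZTs, 20 and 26 of them were lower under the 5% rule, against 8.61% and 11.3%. The study rule calls rest on a spread estimated over all 30 groups. With only the groups compared in the fit, 0 plastid genes passed it in either ecotype, while 30 and 30 still passed the 5% rule. At ZT16 in Bd21, where 1 of the libraries that stood apart is an LL library, the study rule count went from 7 to 15 without the 2 such libraries. Single libraries decided this count, which was 1 without Bd21 S ZT16 replicate 2, 4 without Bd21 LL ZT16 replicate 1, 11 without Bd21 S ZT16 replicate 1 or replicate 3, and 15 without Bd21 LL ZT16 replicate 3. The 2 calls of Bd21-3 at ZT0 were 1 without S replicate 1 or 2 or LL replicate 1 or 2.

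Plastid L4 (Bradi1g67170), which lines the tunnel through which the new chain leaves the ribosome, had the lowest mean log2FC over the 10 comparisons, -2.63. In Bd21 at ZT20 its level was 20.4, 9.35 and 9.91 CPM in the S libraries, 118, 104 and 128 in LL and 167, 256 and 282 in NG. The 3 groups did not overlap, and S over LL was -3.13 ± 0.34 (SE, adjusted p = 6.5e-12). In Bd21-3 the S libraries held 11.6, 6.54 and 4.89 CPM and the LL libraries 125, 236 and 171, a log2FC of -4.39 ± 0.34 (SE, adjusted p = 1.1e-17). Against NG at ZT24 the log2FC was -4.92 in Bd21 and -4.75 in Bd21-3. L4 passed the study rule in 8 of the 10 comparisons of S with LL.

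The genes next to it in that order were L3 (Bradi3g03270), L15 (Bradi1g69650) and L12 (Bradi2g45730). All are proteins of the large subunit, with L3 near the peptidyl transferase site and L12 the mobile stalk that recruits translation factors. L3 in Bd21-3 at ZT20 was at 13.2, 5.17 and 7.34 CPM in S and 78.4, 162 and 131 in LL, a log2FC of -3.73 ± 0.35 (SE, adjusted p = 2.1e-14). In Bd21 it was at 18.7, 10.5 and 7.598 CPM against 87.8, 69.6 and 101. All S libraries were thus under all LL libraries in both ecotypes. L15 at ZT20 was at 14.02, 14.2 and 9.65 CPM in S and 122, 189.5 and 165 in LL in Bd21-3 (log2FC -3.55 ± 0.23 SE, adjusted p = 8.0e-22), and at 30.5, 18.4 and 16.7 against 117, 113 and 126 in Bd21 (log2FC -2.44 ± 0.23 SE, adjusted p = 1.2e-14). Here too S and LL did not overlap in either ecotype. L12 in Bd21-3 at ZT8 had 20.1, 21.7 and 30.7 CPM in S and 356, 285 and 336 in LL, a log2FC of -3.71 ± 0.45 (SE, adjusted p = 1.6e-10). In Bd21 the LL libraries of L12 at ZT8 were spread from 139 to 359 CPM, and the study rule called it in 4 of the 10 comparisons.

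Small-subunit protein S1 (Bradi1g64130), which binds messenger RNA, did not pass the test at the first time point in Bd21. At ZT0 it was at 569.8, 532 and 622 CPM in S and 493, 493 and 629.6 in LL, which overlap, with a log2FC of 0.10 ± 0.11 (SE, adjusted p = 0.45). By ZT24 the S libraries held 85.2, 75.4 and 81.9 CPM and the 2 LL libraries 335 and 337, a log2FC of -2.04 ± 0.12 (SE, adjusted p = 6.6e-23). In Bd21-3 it had fallen at ZT0 already, from 517, 498 and 484 CPM in LL to 394, 376 and 338 in S (log2FC -0.44 ± 0.11 SE, adjusted p = 4.3e-04), and was at 49.3, 58.7 and 59.5 CPM in S at ZT24. L21 (Bradi3g09730), a protein of the large subunit, did not differ at ZT0 in either ecotype by the test (log2FC 0.02 and -0.08), with 252, 215 and 265 CPM in S and 229, 229 and 265 in LL in Bd21. It was lower in S at every later ZT in both. The members that moved least were S21 (Bradi3g14070) and L10 (Bradi2g37810), named after their values were seen, with mean log2FC of -0.25 and -0.64 over the 10 comparisons. Over the 30 genes this mean had a median of -1.95, ran from -2.63 to -0.25 with an SD of 0.53 between genes, and was above 0 for 0 of them.

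**Figure D2:**
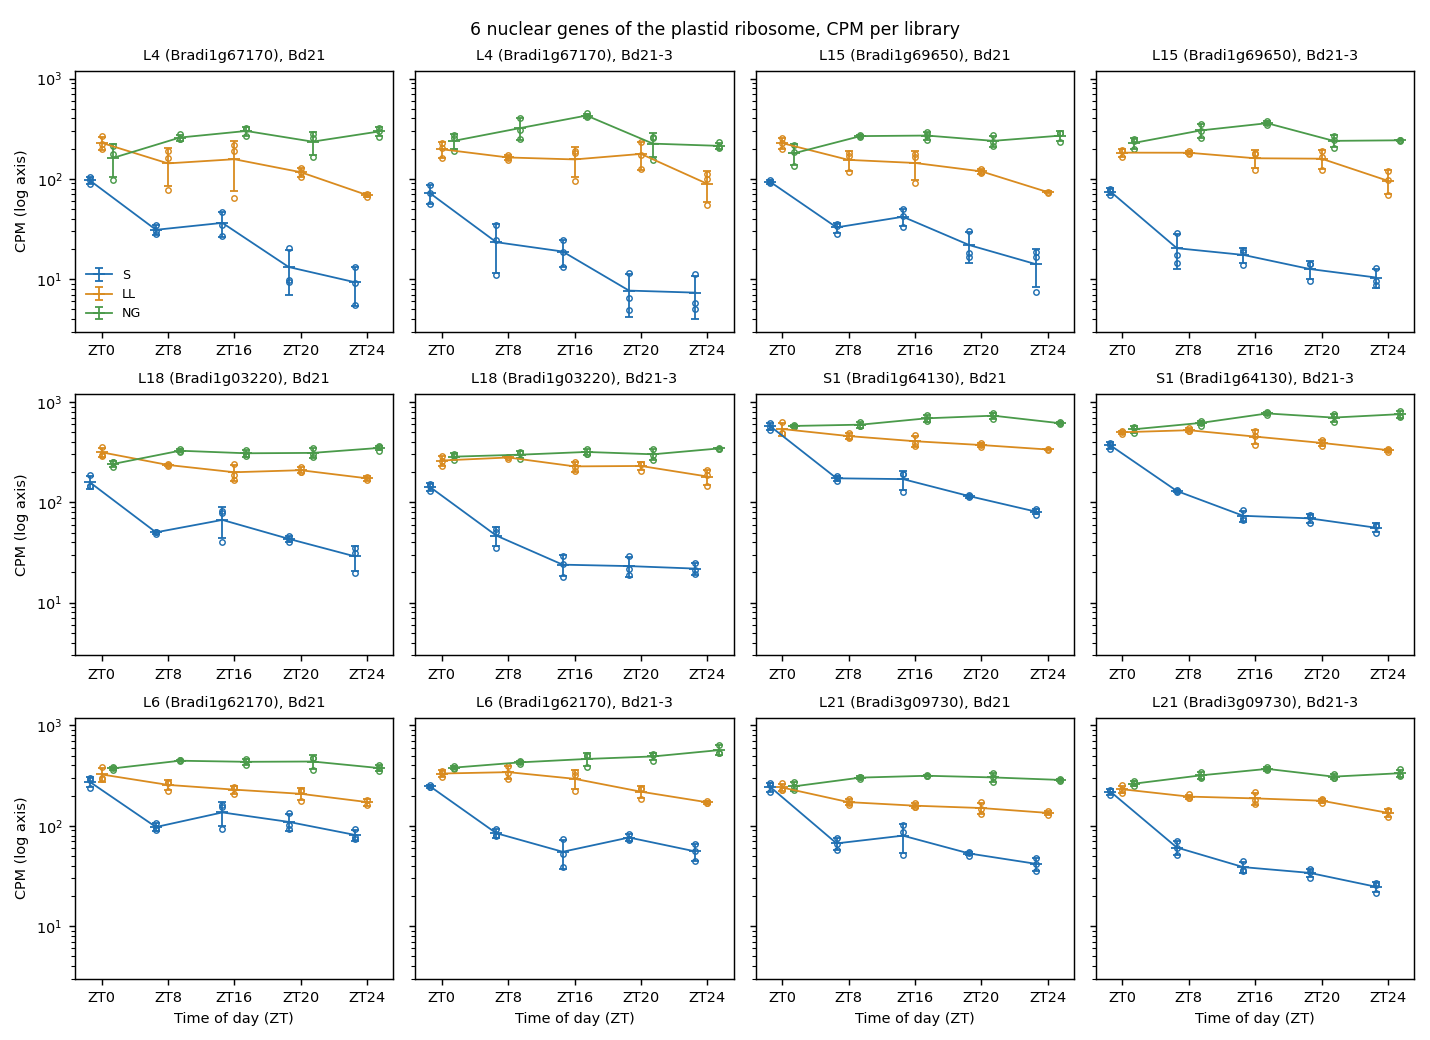
CPM on a log axis (y) of 6 nuclear plastid ribosomal protein genes against ZT (x) in Bd21 and Bd21-3, with open circles for libraries and lines with error bars for mean ± SD in S (blue), LL (orange) and NG (green). S1 and L21 start near LL at ZT0 in Bd21 and lie under it from ZT8, whereas L4, L15 and L18 lie under LL at every ZT.

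Against NG these genes were lower still from ZT8 on. The class median of S over NG was -0.46, -2.42, -2.10, -3.03 and -3.38 at the 5 ZTs in Bd21 and -1.23, -2.89, -3.46, -3.44 and -3.72 in Bd21-3, with all-gene medians between -0.12 and 0.00. Under the study rule 28 of the 30 fell at 1 or more ZTs in each ecotype, against 12.0% and 12.5% of all genes, and under the 5% rule 30 in each, against 51.7% and 51.1%.

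Other lists of leaf and cell type markers moved with these genes. The summed level of 13 green leaf genes, which encode photosynthesis proteins, was lower in all S than in all LL libraries in 9 of the 10 combinations, that of 10 guard cell genes in 10, that of 7 xylem and phloem genes in 10, that of 5 root genes in 9 and that of 19 genes of dividing cells in 6. The green leaf sum ran from 993.5 to 22940.8 CPM in S, 12134.6 to 55571.5 in LL and 19562.7 to 63189.8 in NG in Bd21. In Bd21-3 its ranges were 2048 to 11622, 12605 to 47821 and 18590 to 89262 CPM. Guard cell sums were 44.0 to 72.8 CPM in S, 80.3 to 113 in LL and 96.8 to 131 in NG in Bd21, and 38.8 to 70.5, 79.0 to 107 and 98.1 to 118 in Bd21-3. Xylem and phloem sums were 65.5 to 484, 374 to 1017 and 938 to 1176 CPM, and 142 to 519, 784 to 1272 and 778 to 1364. Root sums were 3.15 to 9.88, 8.91 to 24.9 and 11.7 to 23.9 CPM, and 2.05 to 8.13, 9.93 to 26.1 and 15.6 to 34.4. Sums for dividing cells were 49.1 to 294, 155 to 320 and 276 to 401 CPM, and 49.7 to 269, 136 to 302 and 277 to 401. Under the 5% rule 13 green leaf, 10 guard cell, 6 xylem and phloem and 5 root genes fell at 1 or more ZTs in each ecotype, and 15 and 13 of the dividing cell genes, where 50.7% of all genes fell. In all 5 lists 0 genes were at 0 in all libraries, and 11, 7, 7, 3 and 13 genes, in the order green leaf, guard cells, xylem and phloem, root and dividing cells, were above 0 in every library. The part of these shifts in the fall of the plastid genes was not tested, and in pooled shoots fewer cells of a type and less RNA per cell cannot be told apart.

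Genes of the cytosolic ribosome moved the other way against LL, by far less. In Bd21 their summed level at ZT8 was 21998 ± 740.2 CPM in S, 14472 ± 1449.8 in LL and 28470.2 ± 3084 in NG, and in Bd21-3 18938 ± 1345, 14245 ± 1405 and 26590.4 ± 960.3. All S libraries were above all LL libraries in 4 of the 10 combinations and overlapped in 6. Against NG all S libraries were lower in 7 and overlapped in 3. At ZT16 in Bd21 the S libraries had sums of 22033, 20148 and 31976 CPM, with replicate 3 far above the others, and at ZT24 20324, 17480.4 and 13216, with replicate 3, which stood apart, the lowest.

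In Bd21, 38, 120, 137, 54 and 84 of the 162 cytosolic genes tested rose in S over LL at the 5 ZTs under the 5% rule, against 23.8%, 23.2%, 27.1%, 26.5% and 23.7% of all genes. In Bd21-3 the counts were 23, 85, 73, 47 and 52, against 23.5%, 24.5%, 25.2%, 27.5% and 25.9%. The counts at ZT0 in both ecotypes and at ZT20 in Bd21-3 were thus at, under or little above the share of all genes. Single libraries moved most of these counts by over 1.5 times. In Bd21 the count at ZT0 was 22 without LL replicate 1, at ZT16 90 without S replicate 3, at ZT20 35 without S replicate 1 and at ZT24 53 without LL replicate 2. In Bd21-3 it was 11 without S replicate 3 and 14 without LL replicate 1 at ZT0, and 37 without LL replicate 1 at ZT16. At ZT20 it was 23 without S replicate 2, 25 without LL replicate 1 and 27 without LL replicate 3, and at ZT24 29 without S replicate 3 and 31 without LL replicate 1. The ZT8 counts, 102 or more in Bd21 and 61 or more in Bd21-3 with any library left out, were within 1.5 times. The class medians were 0.15, 0.61, 0.73, 0.25 and 0.51 in Bd21 and 0.01, 0.43, 0.42, 0.21 and 0.26 in Bd21-3, beside the all-gene medians given for the plastid genes. With quantile normalization the medians were 0.01 at ZT0 and 0.11 at ZT20 in Bd21, and -0.17 at ZT0, 0.03 at ZT20 and 0.11 at ZT24 in Bd21-3. At 1 or more ZTs, 143 cytosolic genes rose in Bd21 and 118 in Bd21-3, against 47.6% and 46.5% of all genes, and 16 and 34 fell, against 50.7% in each. The subunits had similar values, with a median over members of the mean log2FC of 0.35 for the 99 large-subunit genes (90 above 0, range -0.26 to 0.93) and 0.34 for the 63 small-subunit genes (59 above 0, range -0.28 to 0.87).

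Few of these rises were large. The study rule called 1 cytosolic gene, where 7.03% of all genes rose in Bd21 and 7.5% in Bd21-3 at 1 or more ZTs. It was RPS29 (Bradi1g07210), a small zinc-binding protein of the small subunit, in Bd21 at ZT16. Its S libraries held 37.00, 30.5 and 75.7 CPM, its LL libraries 15.6, 9.28 and 18.9 and its NG libraries 22.98, 24.4 and 18.8, with a log2FC over LL of 1.59 ± 0.27 (SE, adjusted p = 1.1e-06). All S libraries were above both controls, with replicate 3 the highest. Under the 5% rule RPS29 rose in 8 of the 10 comparisons.

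RPL5 (Bradi4g13640), which carries 5S ribosomal RNA into the large subunit, rose in all 10. In Bd21 at ZT16 it was at 538, 509 and 703 CPM in S, 354, 298 and 341 in LL and 448, 572 and 503 in NG, a log2FC over LL of 0.81 ± 0.12 (SE, adjusted p = 3.7e-08). In Bd21-3 at ZT24 S was lower than NG, with a log2FC of -0.79 ± 0.12 (SE, adjusted p = 4.1e-08). RPL10 (Bradi2g34440), a protein added late to the large subunit, rose in 9, with 579.9, 772 and 919.9 CPM in S and 347, 312 and 246 in LL in Bd21 at ZT16 (log2FC 1.32 ± 0.16 SE, adjusted p = 1.6e-10). RPL18 (Bradi1g62930) rose in 8 and had 51.3, 47.7 and 48.2 CPM in S against 14.8, 18.9 and 21.1 in LL in Bd21 at ZT8 (log2FC 1.39 ± 0.19 SE, adjusted p = 4.5e-09). In these 3 genes the S and LL libraries did not overlap. RPS6 (Bradi1g60730), whose phosphorylation is the classic readout of TOR activity, and RPS4 (Bradi2g35620) moved less and passed the 5% rule in 6 and 3 comparisons. RPS6 in Bd21 at ZT8 was at 505, 431 and 443 CPM in S, 338, 332 and 374 in LL and 577, 588 and 525 in NG, a log2FC over LL of 0.40 ± 0.10 (SE, adjusted p = 5.2e-04). RPS4 in Bd21 at ZT16 was at 567, 533 and 759.6 CPM in S and 459.8, 398 and 389 in LL (log2FC 0.56 ± 0.13 SE, adjusted p = 1.4e-04).

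With NG as the control the rise was gone for most. Over NG 57 cytosolic genes rose in Bd21 and 20 in Bd21-3 at 1 or more ZTs, against 47.9% and 44.3% of all genes, while 99 and 135 fell, against 51.7% and 51.1%. Class medians over NG were 0.14, -0.37, 0.13, -0.34 and -0.22 in Bd21 and -0.11, -0.44, -0.33, -0.64 and -0.79 in Bd21-3. The study rule called 1 and 9 of them lower.

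Copies of 1 protein did not always move together. Of the families with more than 1 gene of at least 15 CPM, the gap in mean log2FC of S over LL was widest in RPL12 (1.01), RPL10A (0.91) and RPS3 (0.74). The difference between copies was not tested. RPL12, at the base of the stalk, has Bradi5g20330, with 117, 121 and 110.3 CPM in S and 30.5, 51.5 and 48.9 in LL in Bd21 at ZT8 (log2FC 1.42 ± 0.24 SE, adjusted p = 6.2e-07). Its copy Bradi3g52460 had 141, 147 and 137 CPM in S and 82.6, 138 and 137 in LL, which overlap (log2FC 0.28 ± 0.23 SE, adjusted p = 0.3). For RPL10A in Bd21-3 at ZT16, Bradi4g38510 was at 133, 108 and 133 CPM in S and 94.98, 98.4 and 88.2 in LL (log2FC 0.40 ± 0.12 SE, adjusted p = 0.0034), and Bradi2g55600 at 55.4, 55.1 and 75.8 against 135, 108 and 94.5 (log2FC -0.85 ± 0.17 SE, adjusted p = 2.5e-05). There 1 copy rose and the other fell, with no overlap of S and LL in either. In Bd21 Bradi4g38510 rose more, from 85.2, 83.2 and 99.9 to 195, 151 and 239 CPM (log2FC 1.10 ± 0.12 SE, adjusted p = 2.6e-12). Of RPS3, which sits where messenger RNA enters, Bradi1g21730 rose in 9 of the 10 comparisons, as in Bd21-3 at ZT8 with 22.5, 34.3 and 34.2 CPM in S and 10.7, 13.5 and 9.99 in LL (log2FC 1.33 ± 0.21 SE, adjusted p = 2.2e-07). Bradi3g16150 passed the 5% rule in 0. Reads of near-identical copies may have been split or dropped in counting, which leaves the values of single copies uncertain.

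RPL30 had a copy with the highest mean log2FC of the cytosolic class, 0.93, and a copy with the largest fall of any member in LL over NG under the study rule. Bradi2g10400 rose in all 10 comparisons and in Bd21-3 at ZT24 was at 96.3, 83.7 and 104 CPM in S, 47.98, 38.5 and 47.6 in LL and 70.5, 49.6 and 54.9 in NG (log2FC 1.07 ± 0.15 SE, adjusted p = 1.8e-08 over LL). Bradi1g31460 was at 23.7, 17.4 and 22.4 CPM in S, 13.2, 14.6 and 17.99 in LL and 101, 77.4 and 95.02 in NG. Its log2FC was 0.44 ± 0.18 (SE, adjusted p = 0.035) in S over LL and -2.50 ± 0.18 (SE, adjusted p = 7.5e-18) in LL over NG, so S and LL were both far under NG.

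**Figure D3:**
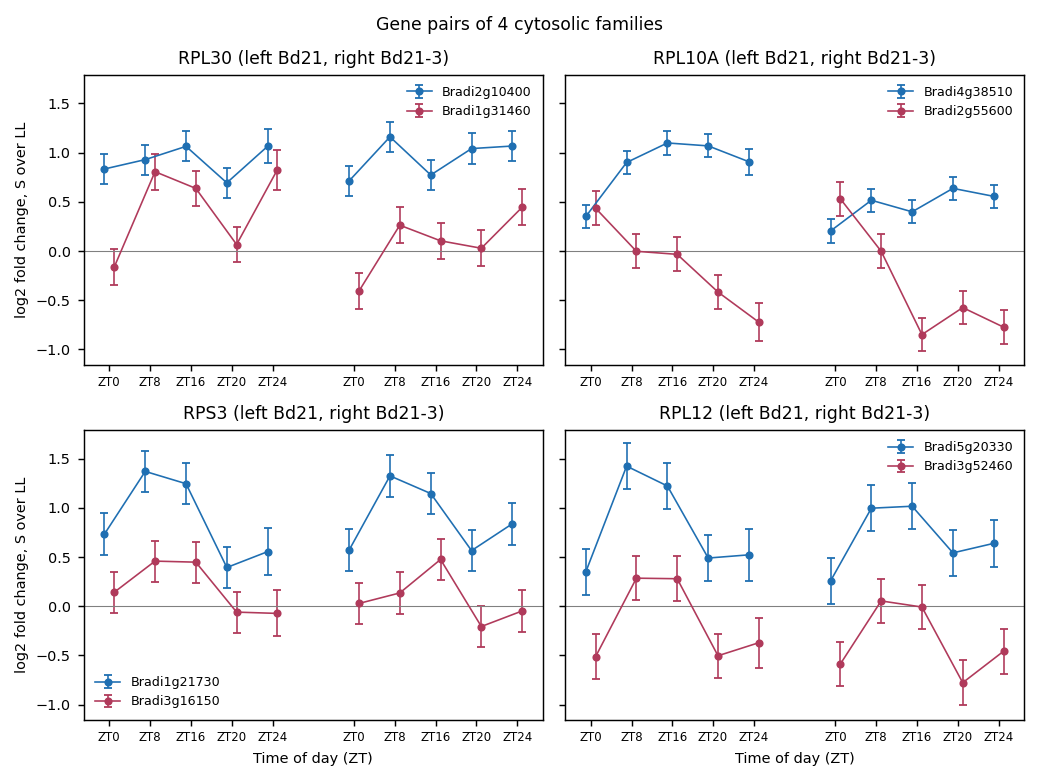
Log2FC of S over LL (y axis, points ± SE) against ZT (x axis) of 2 copies each of RPL30, RPL10A, RPS3 and RPL12 in Bd21 and Bd21-3. The copies Bradi2g10400, Bradi4g38510, Bradi1g21730 and Bradi5g20330 lie above their partners on average over the 10 comparisons, with mean log2FC of 0.93, 0.66, 0.87 and 0.75.

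Nuclear genes of the mitochondrial ribosome also rose against LL. In Bd21 at ZT8 their sum was 847, 768 and 742 CPM in S, 525, 538 and 568 in LL and 890.0, 868 and 775 in NG. All S libraries were above all LL libraries in 9 of the 10 combinations and overlapped in 1. Against NG they were higher in 1, lower in 3 and overlapping in 6. Of the 44 genes, 11, 22, 26, 17 and 27 rose over LL at the 5 ZTs in Bd21 under the 5% rule and 8, 26, 15, 15 and 17 in Bd21-3, so that the ZT0 counts were near or under the share of all genes given with the cytosolic counts. The class medians were 0.20, 0.49, 0.53, 0.32 and 0.56 in Bd21 and -0.02, 0.44, 0.34, 0.28 and 0.32 in Bd21-3. With quantile normalization they were 0.39 in Bd21 and 0.22 in Bd21-3 at ZT0, and 0.44 in Bd21-3 at ZT20. At 1 or more ZTs 34 rose and 5 fell in Bd21, and 28 rose and 11 fell in Bd21-3, where 47.6% and 46.5% of all genes rose and 50.7% fell. Over NG 24 rose and 15 fell in Bd21, and 12 and 22 in Bd21-3, where 47.9% and 44.3% of all genes rose and 51.7% and 51.1% fell, so the rise in Bd21 and the fall in Bd21-3 were near those shares.

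L9 (Bradi1g52250) rose in all 10 comparisons, with 44.8, 34.8 and 45.8 CPM in S, 20.6, 25.7 and 25.6 in LL and 45.4, 48.5 and 36.03 in NG in Bd21 at ZT8 (log2FC 0.77 ± 0.12 SE, adjusted p = 2.0e-07 over LL). S and NG overlapped, with LL under both. S9 (Bradi1g19110), a small-subunit protein, rose in 8, as in Bd21-3 at ZT8 with 39.3, 43.3 and 43.8 CPM in S and 29.2, 26.4 and 21.7 in LL (log2FC 0.70 ± 0.12 SE, adjusted p = 5.1e-07). L18 (Bradi3g52090) went the other way and fell in 9 of the 10. It was placed with the mitochondrial genes by its closest Arabidopsis gene alone. Its description names no organelle, and the placement was not tested. In Bd21-3 at ZT20 it was at 3.51, 1.69 and 1.496 CPM in S, 10.7, 30.00 and 17.8 in LL and 26.8, 15.6 and 29.1 in NG, a log2FC over LL of -2.61 ± 0.42 (SE, adjusted p = 2.5e-07). Its mean log2FC of -1.72 was the lowest of the class, in which 37 of the 44 had a mean above 0 and the median was 0.34.

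Members that match genes of the plastid genome were mostly near the detection limit, with 5 of the 13 above 0 in every library. A poly(A)-selected library holds few organelle transcripts, and copies of plastid genes in the nucleus cannot be told apart from them. At the 5 ZTs 1, 0, 1, 1 and 1 of them rose over LL in Bd21 and 3, 0, 0, 1 and 1 in Bd21-3 under the 5% rule, at or under the share of all genes. The summed level in S was above LL in 3 of the 10 combinations, with overlap in 7, and above NG in 6. The match to rps16 (Bradi1g70165) had 65.7, 57.6 and 75.8 CPM in S, 18.2 and 28.7 in LL and 9.73, 10.6 and 20.6 in NG in Bd21 at ZT24, with log2FC of 1.49 ± 0.36 (SE, adjusted p = 3.7e-04) over LL and 2.27 ± 0.32 (SE, adjusted p = 5.1e-09) over NG, and passed the 5% rule in 7 of the 10 comparisons with LL. The match to rps18 (Bradi1g05752) passed in 1, Bd21-3 at ZT0, with 10.8, 16.3 and 10.7 CPM in S and 4.93, 1.19 and 1.83 in LL (log2FC 2.01 ± 0.42 SE, adjusted p = 4.6e-05). These 2 were thus higher in S where they passed. The class as a whole did not move in 1 direction. Over the 13 members the mean log2FC of S over LL had a median of -0.05, ran from -0.53 to 1.03 and was above 0 for 6.

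Some members were ribosomal by description but were assigned to none of the 3 ribosomes. The highest mean log2FC of all members over the 10 comparisons, 1.40, was that of Bradi3g38380, a protein with the S5-type fold whose closest Arabidopsis gene is not a ribosomal subunit. In Bd21-3 at ZT8 it was at 60.8, 58.2 and 65.4 CPM in S, 13.5, 15.9 and 20.6 in LL and 10.7, 12.6 and 18.05 in NG (log2FC 1.84 ± 0.14 SE, adjusted p = 4.8e-18 over LL), and it passed the 5% rule in all 10 comparisons. Bradi3g21230, a relative of the RNA-binding protein SNU13 of spliceosome and nucleolar particles, was at 21.4, 22.5 and 16.9 CPM in S and 5.403, 5.07 and 7.47 in LL in Bd21-3 at ZT8 (log2FC 1.61 ± 0.21 SE, adjusted p = 1.6e-09). Bradi3g36600, a relative of ClpS, which hands substrates to the plastid Clp protease, fell in Bd21-3 at ZT8 from 175, 192 and 224 CPM in LL to 44.99, 66.8 and 46.1 in S (log2FC -1.90 ± 0.14 SE, adjusted p = 2.0e-19). Its S and LL libraries lay far apart. Bradi2g45070, the elongation factor eEF2 (LOS1), which moves the ribosome along the messenger RNA, rose in 2 of the 10 comparisons, both at ZT8 (log2FC 0.86 in Bd21 and 0.99 in Bd21-3). Bradi3g13750, described as an acidic large-subunit protein, passed in 2 of the 10, and Bradi1g18120, a relative of the yeast assembly factor NSA2, in 4. Of these 39 members and the mitochondrion-encoded match, 40 in all, 28 rose in Bd21 and 25 in Bd21-3 at 1 or more ZTs and 11 and 13 fell, where 47.6% and 46.5% of all genes rose and 50.7% fell.

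Genes of all 3 ribosomes were lower in low light without water than in normal growth from ZT8 on. At ZT0 5 and 0 cytosolic, 0 and 0 plastid and 1 and 0 mitochondrial genes were lower in LL than in NG in Bd21 and Bd21-3 under the 5% rule, against 2.11% and 0.0124% of all genes. From ZT8 to ZT24 the cytosolic counts were 152, 112, 103 and 122 in Bd21, against 17.9%, 10.9%, 16.7% and 23.6% of all genes, and 152, 130, 117 and 140 in Bd21-3, against 16.3%, 19.0%, 14.6% and 19.5%. In Bd21 the cytosolic count at ZT16 was 56 without NG replicate 2 and that at ZT24 80 without LL replicate 2, while the 5 at ZT0 were 0 without LL replicate 1 or NG replicate 1, 2 without LL replicate 2 and 1 without NG replicate 2. The plastid counts were 21, 21, 25 and 29 of 30 in Bd21 and 14, 28, 17 and 26 in Bd21-3, and the mitochondrial counts 29, 13, 18 and 18 of 44 and 23, 20, 22 and 21. At 1 or more ZTs 236 and 237 of the 289 members fell, against 33.4% and 33.7% of all genes, of which 154 and 156 were cytosolic, 29 and 29 plastid and 33 and 30 mitochondrial. The study rule called 11 and 19 members, against 1.31% and 1.58%.

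Cytosolic medians of LL over NG were -1.02 at ZT8 and -0.78 at ZT24 in Bd21 and -0.89 and -1.03 in Bd21-3, and plastid medians -0.69 and -1.43, and -0.57 and -1.21. The medians of all genes lay between -0.11 and 0.00. Bradi4g24635, a copy of RPL29, was at 15.00, 12.2 and 10.2 CPM in LL and 63.5, 39.9 and 42.1 in NG in Bd21-3 at ZT24 (log2FC -1.86 ± 0.27 SE, adjusted p = 4.1e-08), and Bradi1g23960, a copy of RPS13, at 10.3, 15.02 and 9.303 against 54.6, 43.7 and 34.9 at ZT8 (log2FC -1.86 ± 0.32 SE, adjusted p = 4.8e-06). In both, each LL library was under each NG library. Mitochondrial L13 (Bradi4g41070) in Bd21 at ZT24 was at 4.05 and 2.81 CPM in the 2 LL libraries and 18.05, 15.5 and 15.7 in NG (log2FC -1.99 ± 0.20 SE, adjusted p = 5.5e-12). Plastid S10 (Bradi1g71425) in Bd21-3 at ZT24 was at 19.2, 19.97 and 18.1 against 84.6, 76.8 and 55.95 (log2FC -1.85 ± 0.29 SE, adjusted p = 2.8e-07). S over LL and LL over NG share the LL libraries.

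**Figure D4:**
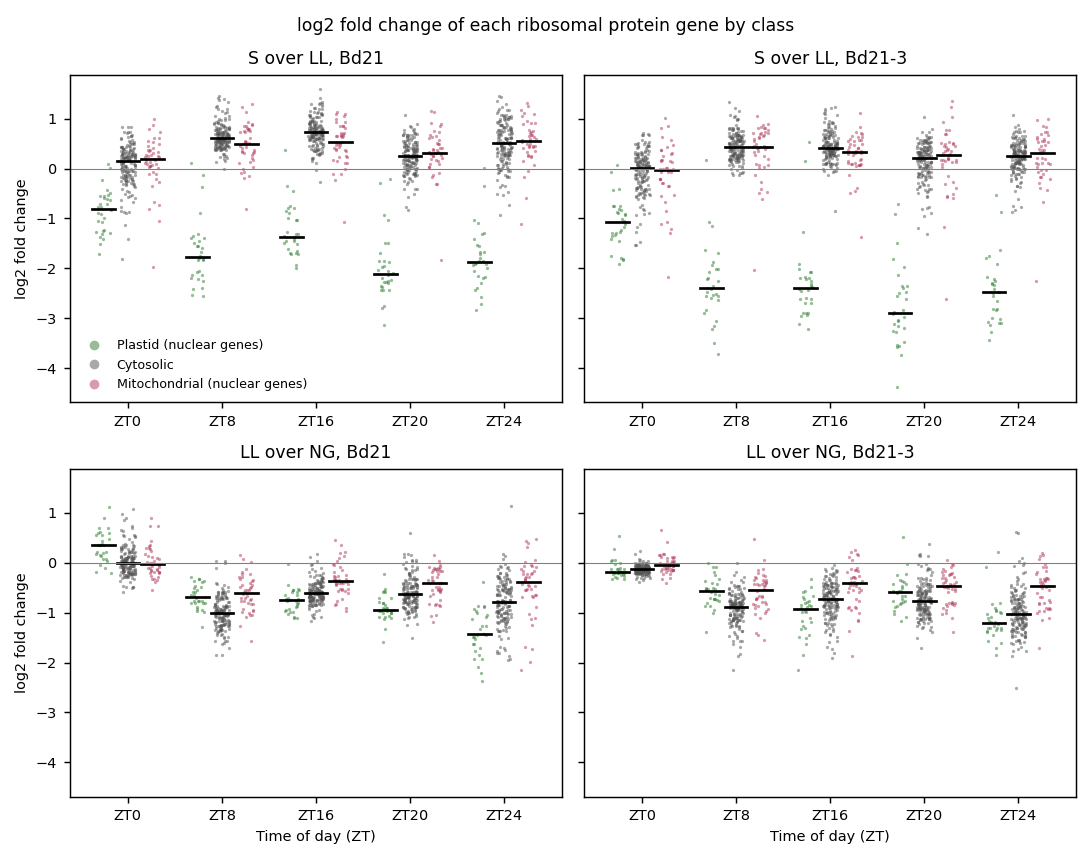
Log2FC of each member (points) against ZT in S over LL (top) and LL over NG (bottom) by class, with black bars for class medians. In S over LL the plastid median runs from -0.80 to -2.11 in Bd21 while the cytosolic median runs from 0.15 to 0.73, and in LL over NG both medians are below 0 from ZT8 on.

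Between the ecotypes members differed in S, with the highest counts at ZT16 and ZT24, which moved with single libraries. Under the 5% rule 12, 25, 119, 27 and 74 of the 289 were higher in Bd21 than in Bd21-3 in S, against 7.36%, 12.1%, 15.0%, 8.4% and 9.29% of all genes, so the counts at ZT0, ZT8 and ZT20 were near or under that share. Of the 119 at ZT16, 22 were plastid, 74 cytosolic and 14 mitochondrial, and of the 74 at ZT24, 10, 52 and 8. The medians in S at ZT16 were 0.97 for plastid and 0.46 for cytosolic genes, with all-gene medians between -0.02 and 0.05. At 1 or more ZTs 146 were higher in Bd21 in S, against 25.1%, 16 in LL, against 8.42%, and 6 in NG, against 12.3%. With only the groups compared in the fit the counts were 33 in S, 7 in LL and 31 in NG, and without the 2 libraries that stood apart they were 26 in LL and 11 in NG. Without those 2 libraries the count in S at ZT24 went from 74 to 129. It was 25 without Bd21 replicate 1, 44 without Bd21-3 replicate 2 and 123 without Bd21 replicate 3, and the 119 at ZT16 were 56 without Bd21 replicate 3, the library with the far higher cytosolic sum. The count at ZT0 was 7 without Bd21 replicate 1 or 3, that at ZT8 15 without Bd21 replicate 1 or 2, and that at ZT20 12 without Bd21 replicate 1 and 14 without Bd21-3 replicate 3. In NG at ZT0 34 members, 31 of them cytosolic, were lower in Bd21, against 3.66% of all genes.

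A few members differed between the ecotypes by much more. RPL34 (Bradi3g16620) was higher in Bd21 under the study rule at all 5 ZTs in S and LL and at 4 in NG. At ZT16 in S it was at 72.1, 61.1 and 108 CPM in Bd21 and 7.56, 9.78 and 8.88 in Bd21-3 (log2FC 3.03 ± 0.28 SE, adjusted p = 4.2e-14), and in NG at 71.5, 78.97 and 54.4 against 12.4, 9.34 and 5.87 (log2FC 2.80 ± 0.28 SE, adjusted p = 1.2e-12). The difference was thus present in plants never submerged, and the part of alignment to the Bd21 genome in it was not tested. RPS19 (Bradi4g08690) in S at ZT24 was at 86.6, 66.96 and 40.8 CPM in Bd21 and 22.1, 18.4 and 19.9 in Bd21-3 (log2FC 1.58 ± 0.20 SE, adjusted p = 2.1e-09). Plastid S10 (Bradi1g71425) in S at ZT16 was at 20.1, 15.9 and 45.1 against 3.36, 3.396 and 4.89 (log2FC 2.39 ± 0.29 SE, adjusted p = 4.0e-10).

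The fall of the plastid genes under water was larger in Bd21-3 at ZT16. The difference of the responses, with the log2FC of Bd21 taken from that of Bd21-3, was below 0 under the 5% rule for 1, 5, 19, 9 and 2 of the 30 plastid genes at the 5 ZTs, against 1.34%, 5.81%, 6.62%, 2.11% and 0.971% of all genes. The class medians of the difference were -0.25, -0.71, -1.15, -0.77 and -0.62, with all-gene medians between -0.05 and 0.01. With any 1 library left out the count was 15 to 21 at ZT16, 3 to 7 at ZT8, 0 to 5 at ZT24, 0 to 1 at ZT0 and 5 to 9 at ZT20, so the counts other than that at ZT16 rest on single libraries. The 5 at ZT20 came without Bd21 S replicate 1, Bd21 LL replicate 1, Bd21-3 S replicate 3 or Bd21-3 LL replicate 2. The green leaf genes moved likewise at ZT16, where 7 of the 13 were below 0 and 0 above 0 under the 5% rule, with a median of -1.32, and the part of that shift was not tested. At 1 or more ZTs 19 plastid genes passed, against 11.5%, and 5 with only the groups compared in the fit. The study rule passed 2 at ZT16, where 0.444% of all genes passed it at 1 or more ZTs. Of the cytosolic genes 13 of 162 passed the 5% rule, which is near the share of all genes. That count was 3 without Bd21 S ZT16 replicate 3, 32 without Bd21 S ZT16 replicate 2 and 22 without the 2 libraries that stood apart.

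L6 (Bradi1g62170), a large-subunit protein near the factor-binding site, was at 154, 93.03 and 160.5 CPM in S and 246, 205 and 237 in LL in Bd21 at ZT16 (log2FC -0.79 ± 0.16 SE, adjusted p = 3.3e-05). In Bd21-3 it was at 52.3, 38.9 and 74.04 CPM in S and 318, 342 and 222 in LL (log2FC -2.42 ± 0.16 SE, adjusted p = 9.7e-21), and the difference of the responses was -1.63 ± 0.23 (SE, adjusted p = 2.7e-07). L18 (Bradi1g03220), which binds 5S ribosomal RNA, was at 81.8, 40.1 and 78.4 against 242, 188 and 169 CPM in Bd21 and 18.01, 24.4 and 29.3 against 204, 254 and 227 in Bd21-3, a difference of -1.61 ± 0.24 (SE, adjusted p = 9.8e-07). In both genes the LL libraries of the ecotypes overlapped and the S libraries did not. S1 (Bradi1g64130) was at 194, 128 and 190.0 CPM in S in Bd21 and 69.6, 66.7 and 83.9 in Bd21-3, with LL at 465, 391 and 364 and 463, 518 and 376 (log2FC -1.33 ± 0.15 SE, adjusted p = 1.4e-09 for the difference). In all of these Bd21 S replicate 2 was the lowest of its group at ZT16, and the S libraries of the ecotypes did not overlap.

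**Figure D5:**
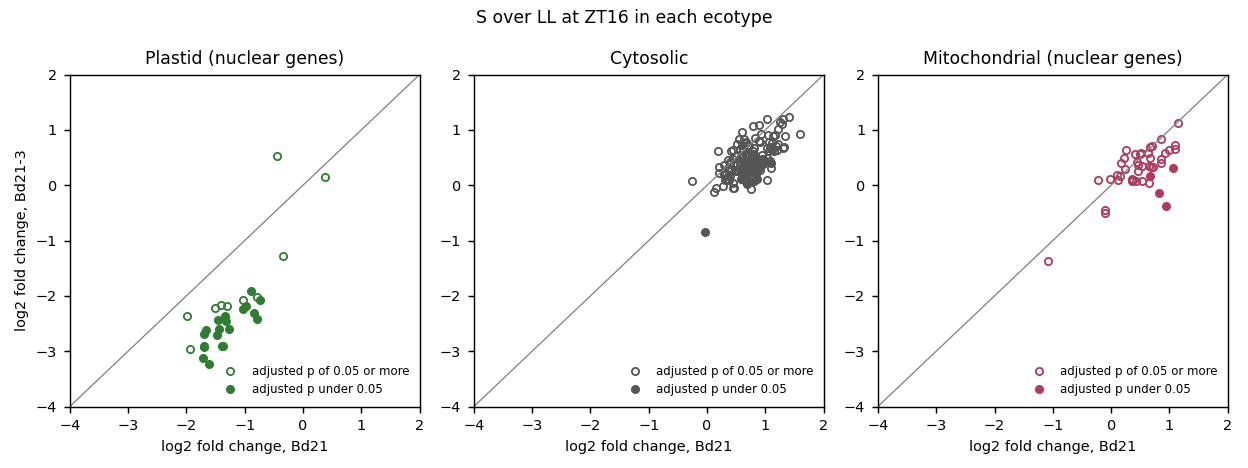
Log2FC of S over LL at ZT16 in Bd21 (x axis) and Bd21-3 (y axis) for each nuclear plastid, cytosolic and nuclear mitochondrial gene, with filled points for an adjusted p under 0.05 of the ecotype difference and a grey line where both are equal. In the plastid panel 19 genes are filled, with a class median of the difference of -1.15, and most cytosolic points lie above 0 on both axes.

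Most members that changed between ZTs in S were plastid genes. In S each later ZT is also a longer time under water, so these 2 cannot be told apart. The same holds in LL for the time in low light. Where the means of the ZTs spanned a log2FC of 1.5 or more and the study rule's other limits held, 33 members changed in Bd21 in S, 25 of them plastid, and 25 in Bd21-3, 23 of them plastid, against 11.2% and 10.1% of all genes. Over all 289 members these shares were close to those of all genes. In LL 1 and 2 changed, against 2.41% and 2.52%, and in NG 5 and 1, against 1.72% and 1.85%. The response, S over LL, changed between ZTs for 23 and 24 plastid genes under the 5% rule, against 54.0% and 53.3%, and for 7 and 15 under the study rule, against 9.22% and 9.0%. With only the groups compared in the fit, 3 members changed in S in Bd21 and 9 in Bd21-3.

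The zenith, the ZT with the highest mean CPM, has no test of its own. For S a zenith cannot be told apart from a change with the time under water. For LL it cannot be told apart from a change with the time in low light, since these plants were moved to tanks for the experiment. In NG it was ZT8 for 151 of the 155 cytosolic genes with at least 15 CPM in Bd21 and for 102 in Bd21-3. In S it was ZT16 for 122 in Bd21, and in Bd21-3 ZT0 for 68, ZT8 for 40 and ZT16 for 45. In LL it was ZT0 for 87 and 149, but ZT24, the next dawn, for only 6 and 4. The zenith of the 29 plastid genes was ZT0 for 28 in S in each ecotype and for 29 and 18 in LL. For NG it was ZT24 for 11 and ZT16 for 10 in Bd21, and ZT16 for 21 in Bd21-3. RPP2 (Bradi2g23830), an acidic protein of the stalk, changed over the day in NG in Bd21, with 41.3, 34.6 and 35.5 CPM at ZT0 and 82.02, 79.6 and 71.8 at ZT8, a range over ZTs of 1.05 (adjusted p = 1.3e-07). It rose over LL in all 10 comparisons. In Bd21-3 mitochondrial L6 (Bradi4g05970) ran from 4.62, 6.29 and 4.64 CPM at ZT8 to 11.5, 16.3 and 12.5 at ZT20 in NG, a range of 1.23 (adjusted p = 8.5e-07).

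Factors that assemble ribosomes also rose over LL. Of 45 ribosome biogenesis genes, 23, 31, 30, 40 and 34 rose at the 5 ZTs in Bd21 and 19, 31, 27, 26 and 33 in Bd21-3 under the 5% rule, to be set beside the shares and medians of all genes given above, with medians of 0.46, 0.92, 0.63, 0.73 and 0.95, and 0.19, 0.93, 0.52, 0.42 and 0.63. At 1 or more ZTs 43 and 38 rose, against 47.6% and 46.5% of all genes, and 9 and 9 fell, against 50.7% in each. The study rule called 4 and 7 higher, against 7.03% and 7.5%, so its count in Bd21 was little above that share. Their sum was above LL in all S libraries in all 10 combinations and above NG in 6. The initiation factor eIF6 (Bradi2g10857), which keeps new large subunits from joining small ones, was at 74.4, 191 and 284 CPM in S, 3.43, 1.803 and 1.77 in LL and 1.47, 1.19 and 0.977 in NG in Bd21 at ZT8 (log2FC 5.62 ± 0.41 SE, adjusted p = 1.1e-18 over LL), and at 75.5, 92.05 and 145 against 1.72, 2.03 and 2.64 in Bd21-3 (log2FC 5.03 ± 0.41 SE, adjusted p = 7.4e-17). Every S library was far above both controls, and the S libraries of Bd21 were themselves widely spread. Over the 10 comparisons with LL, eIF6 passed the 5% rule in 9 and the study rule in 7. By its description it is also among the translation factors counted below. Bradi1g33390, a relative of REIL, which matures the large subunit in the cytosol, rose in 10 of 10 comparisons, with 165, 139 and 142 CPM in S, 29.1, 29.1 and 30.9 in LL and 43.1, 39.8 and 61.2 in NG in Bd21-3 at ZT8 (log2FC 2.28 ± 0.13 SE, adjusted p = 1.7e-24).

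Of 7 genes of the TOR kinase pathway, 3, 4, 4, 4 and 4 rose over LL at the 5 ZTs in Bd21 and 3, 4, 4, 5 and 4 in Bd21-3, and of 70 translation factors 22, 41, 39, 36 and 33, and 20, 39, 29, 41 and 39. The share of all genes that rose was 23.8%, 23.2%, 27.1%, 26.5% and 23.7% in Bd21 and 23.5%, 24.5%, 25.2%, 27.5% and 25.9% in Bd21-3. Of the translation factors 49 and 47 rose at 1 or more ZTs, against 47.6% and 46.5% of all genes, and 22 and 25 fell, against 50.7%. The sum of the translation factors was above LL in all S libraries in 5 of the 10 combinations. That of the TOR pathway genes was above LL in 4 and overlapped in 6. Unlike the ribosome classes, the TOR sum in LL was above NG in 6, under it in 0 and overlapping in 4.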

How the data were processed

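RNA-seq libraries (TruSeq v2) of aboveground green tissue were aligned by the authors to Bdistachyon_314_v3.0 with HISAT2 2.1.0, handled with SAMtools 1.12, by which repeat runs were merged, counted with HTSeq and scaled with edgeR. The values deposited by the authors are a signal, reads per gene over an effective library size (CPM), which sum to 843958 to 1243716 in a library. Every value was a whole multiple of 1 read within 0.001 reads, which gave 3896851 to 16044727 reads per library, with 1 read worth 0.0608 to 0.261 CPM, so low values rest on few reads. The same table holds log2 fold changes and adjusted p-values of the authors' own comparisons, which were not used, and 0 columns of sample values were left without a sample.

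Genes with at least 1 CPM in 3 libraries (24109 of 24467) were fitted on log2(CPM + 1) with limma-trend (limma 3.58.1, R 4.3.3), 1 term per group over all 30 groups, and p-values were adjusted by Benjamini-Hochberg over the genes of a comparison. Fold changes on this scale understate those of low genes. Comparisons were S over LL, S over NG, LL over NG, Bd21 over Bd21-3 within a treatment, the difference of the S over LL response between ecotypes, and F tests over ZTs. Sums add the CPM of all members of a list in a library and have no test. Tables and plots were made with Python 3.11.15, pandas 2.3.3, numpy 2.4.6 and matplotlib 3.10.9. The fit was also run on simulated counts that had the same spread in all groups. That run therefore cannot test the sharing of a spread over the 30 groups.

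Classes follow the closest Arabidopsis gene and the description. Members, gene lists and tests were chosen with earlier results of these data known. Genes named in the text were chosen by rule: per class the members with the largest and lowest mean log2FC of S over LL and the 2 with the highest mean CPM, the members with the largest called changes in LL over NG and between ecotypes in S, the 5 with the lowest adjusted p in the ecotype difference, the copies with the widest gaps, the 3 with the lowest adjusted p over ZTs in NG, and listed genes called in at least 5 of 10 comparisons. Alternatives were other pseudocounts (0.25 and 5), a filter at 15 CPM and none, quantile normalization, median-of-ratios scaling, edgeR 4.0.16 on the recovered reads, a fit of only the groups compared, a replicate block, a fold limit of 1 and each library left out. Leaving out both libraries that stood apart was added after seeing the data. No sequences or coordinates were used here.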

Additional observations from a re-analysis of the deposited data

Results flagged for a closer look

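At ZT16 the response to submergence, S over LL, was lower in Bd21-3 than in Bd21 for 35 of the 289 members under the 5% rule, against 6.62% of all genes. That limma test of the difference (Bd21-3 minus Bd21) includes Bd21 LL ZT16 replicate 3, a library that stood apart. The 5 members with the lowest adjusted p are given here, and were picked for that reason. Their differences were -1.61 for plastid L18 (Bradi1g03220, adjusted p = 9.8e-07), -1.63 for plastid L6 (Bradi1g62170, adjusted p = 2.7e-07), -1.33 for plastid S1 (Bradi1g64130, adjusted p = 1.4e-09), -1.21 for plastid L21 (Bradi3g09730, adjusted p = 2.1e-06) and -1.48 for the ClpS relative Bradi3g36600 (adjusted p = 3.4e-08). The first 4 fell in both ecotypes, and further in Bd21-3. Bradi3g36600 moved in opposite directions. In Bd21 its S libraries held 103, 66.8 and 98.9 CPM and its LL libraries 57.5, 52.7 and 52.4, a log2FC of 0.69 (adjusted p = 1.5e-05). In Bd21-3 the S libraries held 42.7, 52.8 and 50.4 CPM and the LL libraries 76.4, 88.2 and 89.8, a log2FC of -0.79 (adjusted p = 1.0e-06). The groups did not overlap in either ecotype, and replicate 2 was the lowest of the Bd21 S libraries, as it was for L18, L6, S1 and L21.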

How the results depend on the processing

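Depth limits single low genes, groups hold 2 or 3 libraries, and the study rule leans on a spread shared by 30 groups. With only the groups compared in the fit, the study rule passed 0 plastid genes in S over LL in Bd21 and 0 in Bd21-3 (25 and 28 otherwise), members changing between ZTs were 3 in Bd21 S, 3 in Bd21 NG, 9 in Bd21-3 S and 1 in Bd21-3 LL (33, 5, 25 and 2 otherwise), members higher in Bd21 were 33 in S, 7 in LL and 31 in NG (146, 16 and 6 otherwise), and the ecotype difference passed 0 cytosolic and 5 plastid genes (13 and 19 otherwise). With NG in place of LL, 57 and 20 cytosolic genes (143 and 118 otherwise) and, in Bd21-3, 12 mitochondrial genes (28 otherwise) rose. With a log2FC limit of 1, members changing between ZTs were 55 in Bd21 S, 3 in Bd21 LL, 15 in Bd21 NG, 41 in Bd21-3 S and 18 in Bd21-3 LL. The count in Bd21 LL, 1 otherwise, was 2 with pseudocounts of 0.25 and 5, median-of-ratios scaling, edgeR, both libraries that stood apart left out, or no minimum of 15 CPM, and 3 with quantile normalization, which gave 8 in Bd21 NG and 7 cytosolic genes in the ecotype difference. Without the 2 libraries that stood apart, members higher in Bd21 were 26 in LL and 11 in NG, and the cytosolic ecotype difference passed 22. The log2 ratio of summed mitochondrial genes in LL over NG was -0.27 in Bd21 and -0.34 in Bd21-3 as a share of reads (-0.39 and -0.48 otherwise). RPS6 (Bradi1g60730) in S over LL in Bd21-3 at ZT20 went from 0.26 (limma adjusted p = 0.022) to -0.045 (adjusted p = 0.77) with quantile normalization. The causes were not tested. Leaving out each library in turn gave 1 to 2 members changing between ZTs in Bd21 LL, 1 to 7 in Bd21 NG and 3 to 32 cytosolic genes in the ecotype difference. Quantile normalization moved the median of all genes by up to 0.13 in S over LL and 0.18 in LL over NG. Same-numbered libraries of an S and an LL group deviated together in few of 27 pairs (correlations from -0.822 to 0.584, 6 over 0.1). The main fit did not pair samples by number. With so few libraries per group these correlations cannot exclude a pairing. With the replicate block, 25 and 28 plastid genes fell under the study rule, 141 and 117 cytosolic genes rose, and the ecotype difference passed 19 plastid and 12 cytosolic genes.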
